A study of Drosophila melanogaster with 6 samples.

Results

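Genes of the ecdysone and juvenile hormone pathways were followed in Drosophila melanogaster S2R+ cells whose RNA had been sequenced after RNA interference. The 10 genes were taken by name from the deposited tables: the receptor genes EcR, usp, Met and gce, the early response genes Eip75B, Eip74EF, Eip78C, br and Kr-h1, and JhI-26. They make up 10 of the 23932 genes in each table, and all 10 passed the filter on low counts. The set was chosen by the counts of JhI-26, which were higher in the libraries labelled dsFib, so the difference between these groups is described for the 10 genes without a test.

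A pair of hormones times the growth and metamorphosis of insects. Ecdysone enters a cell, binds the nuclear receptor made of EcR and usp, and switches on a small set of early genes, most of which encode transcription factors that pass the signal on. Juvenile hormone binds the paralogous receptors Met and gce, which induce Kr-h1, a zinc finger repressor that holds back metamorphosis. Drosophila cell lines of embryonic origin have long been used to study both hormones, because they respond when hormone is added to the medium.

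The libraries labelled dsFib (n = 3) are, by their labels, from S2R+ cells given double-stranded RNA against Fib, which encodes the methyltransferase of box C/D small nucleolar RNA particles. The dsLacZ libraries (n = 3) are labelled as S2R+ cells given double-stranded RNA against the bacterial gene lacZ. S2R+ is an established line of late embryonic origin, grown in Schneider's medium with serum, and the labels name no added hormone, no time after treatment and no separate cultures, so the spread between libraries may be technical. RNA was depleted of ribosomal RNA and copied with TGIRT, a group II intron reverse transcriptase that reads through structured RNA, so small and long RNAs are measured together.

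The libraries held 11695250 to 15172052 counts. Fib itself, the targeted gene, was at 1312, 954.9 and 994.2 CPM in the libraries labelled dsFib and at 213.9, 257.4 and 227.3 CPM in dsLacZ, which is 4.67-fold higher and goes against the label (adjusted p = 0.00103 by edgeR). Gene-level counts do not separate Fib transcripts from the added double-stranded RNA, and whether such reads were counted was not tested. Directions below are therefore those of the libraries as labelled. Nuclear tRNA took 18.3% of the counts of dsLacZ replicate 2, a library that stood apart from the rest, and 10.8% to 15.3% in the other 5 libraries. Of 11 hemocyte markers, which the blood cell character of this line calls for, 8 passed the filter and 0 passed the test by edgeR, DESeq2 or limma-voom (2 were higher with an unadjusted p under 0.05). Their summed level was 450.7 to 504.1 CPM in the libraries labelled dsFib and 475.3 to 491.4 CPM in dsLacZ. The largest part of this sum was crq, at 242.0 ± 17.1 CPM in the libraries labelled dsFib and 280.2 ± 19.1 CPM in dsLacZ, so the sum hides that 7 of the 8 tested markers lay above 0 (median log2 fold change 0.23). Without overlap between groups, Hml was at 11.5 ± 2.34 CPM in the libraries labelled dsFib and 6.16 ± 2.46 CPM in dsLacZ, and Col4a1 at 72.5 ± 1.77 CPM in the libraries labelled dsFib and 61.2 ± 4.18 CPM in dsLacZ. In the other direction, crq was lower in the libraries labelled dsFib, also without overlap. Of the untested markers, NimC1 had 14 counts in the libraries labelled dsFib and 0 in dsLacZ, Sr-CI had 22 counts in the libraries labelled dsFib and 2 in dsLacZ, and He had 0. Of 15 markers of other tissues, 4 passed the filter (Mlc2, elav, bam and vg) and 0 passed the test (0 had an unadjusted p under 0.05). Of these 4, 3 lay above 0 (median log2 fold change 0.52), with a summed level of 37.6 to 45.9 CPM in the libraries labelled dsFib and 38.2 to 44.1 CPM in dsLacZ, and with Yp1, Lsp1alpha, repo and grh at 0. Counts of bulk RNA do not separate a change in the share of some cells from a change in RNA per cell, and the part of tRNA share and of other cells in the results below was not tested.

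Across the 10 genes, the early gene Eip75B, the juvenile hormone target Kr-h1 and JhI-26 were higher in the libraries labelled dsFib, by 1.67-fold, 1.69-fold and 1.72-fold in the fitted model. The receptors EcR, usp, Met and gce lay between 1.17-fold lower (Met) and 1.12-fold higher (gce). The early genes Eip74EF and br were 1.15-fold and 1.16-fold higher. Levels given below per library are CPM scaled by TMM, a library scaling that discounts genes far from the bulk, and fold changes are those of edgeR, each followed by its standard error (SE) on the log2 scale.

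The groups did not overlap for 6 of the 10 genes: 5 were higher in the libraries labelled dsFib (JhI-26, Eip75B, Kr-h1, Eip74EF and gce) and 1 was lower (usp). Among all 8302 genes tested, 11.0% were higher and 12.1% lower without overlap. Nothing is read from the share of the 10 genes, because the same contrast chose them. In the deposited CPM, which is scaled by total counts alone, JhI-26 and Kr-h1 remained without overlap and the other 4 overlapped, against 7.13% of all tested genes higher and 13.2% lower. The log2 fold change was positive for 8 of the 10 genes, and for 48.3% of all tested genes. Its median was 0.21 over the 10 genes and -0.01 over all.

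**Figure D1:**
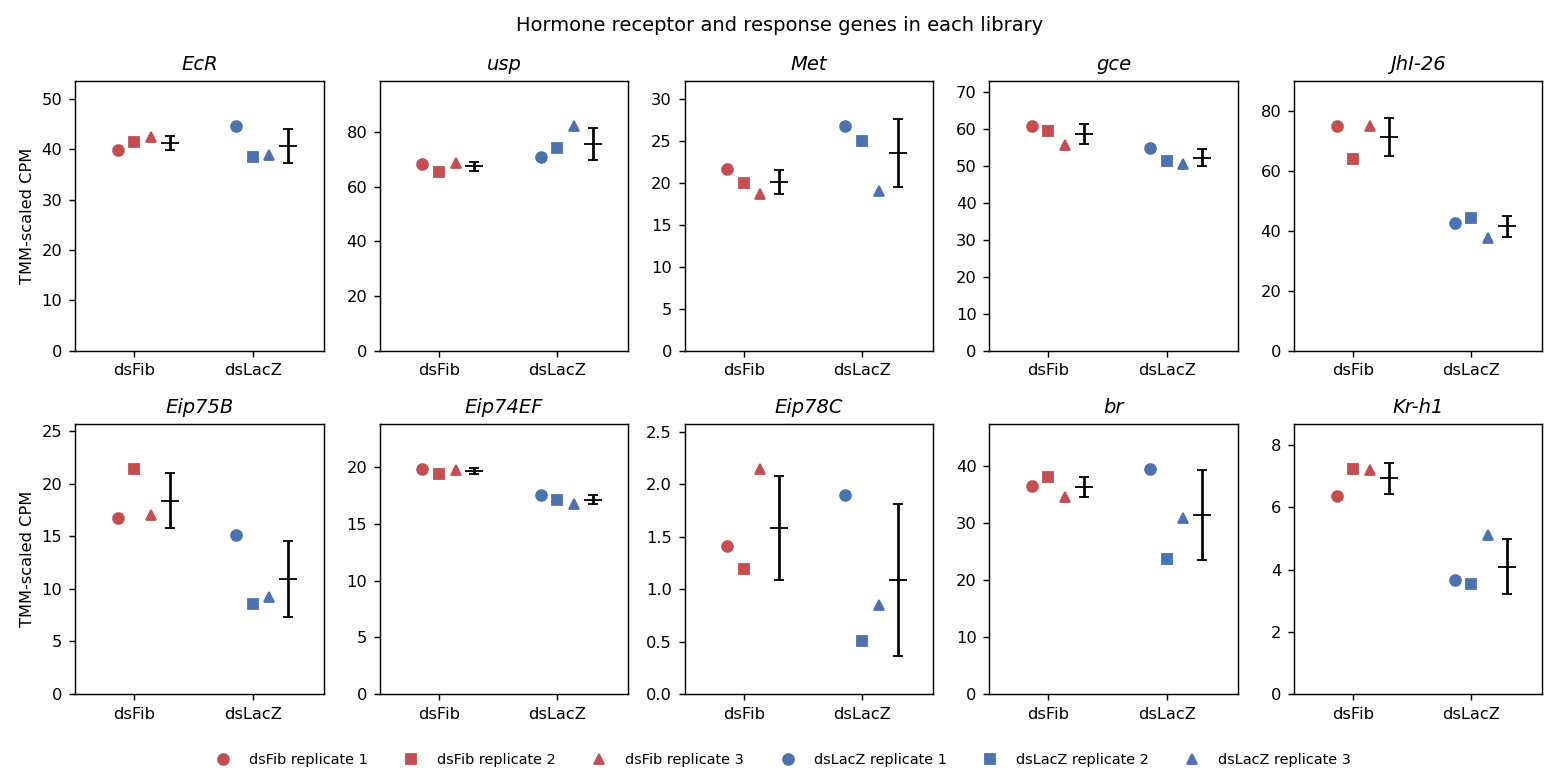
TMM-scaled CPM (vertical axes, from 0) of the 10 genes in each library, with dsFib left of dsLacZ. Points are single libraries and black bars the mean ± SD (n = 3). The 3 libraries labelled dsFib lie above the 3 dsLacZ libraries for JhI-26, Eip75B, Kr-h1, Eip74EF and gce, and below them for usp.

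The ecdysone receptor was described first. EcR (FBgn0000546; 2R, 6087873 to 6169087, minus strand, dm6), the hormone-binding subunit, was at 39.8, 41.4 and 42.5 CPM in the libraries labelled dsFib replicates 1, 2 and 3, and at 44.7, 38.5 and 38.9 CPM in dsLacZ replicates 1, 2 and 3. The dsFib values lie inside the dsLacZ range, with dsLacZ replicate 1 the highest of all. Its log2 fold change was 0.02 (SE 0.10), and the sign was negative under 4 of 15 alternative settings. EcR spans 81215 bases and 25 other annotated genes lie within it, 13 of them tRNA genes that together held 1047085 counts against 3237 for EcR. None shares an exonic base with EcR, and its estimated counts were whole numbers in all 6 libraries.

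Its partner usp (FBgn0003964; X, 2038798 to 2042311, minus strand), the fly member of the retinoid X receptor family, was at 68.2, 65.5 and 68.6 CPM in the libraries labelled dsFib, and at 70.7, 74.1 and 82.3 CPM in dsLacZ. The highest dsFib library lies just under the lowest dsLacZ library, dsLacZ replicate 1, so the groups are apart by a narrow gap. The log2 fold change was -0.17 (SE 0.09), and in the deposited CPM the groups overlapped. Some 265 bases of usp exons are shared with Actn on the same strand and 196 with CG4313 on the opposite strand, and the estimated counts of usp were fractional in 3 libraries.

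The juvenile hormone receptors lay on opposite sides of 0. Met (FBgn0002723; X, 11616124 to 11621280, plus strand), a bHLH-PAS transcription factor first found through resistance to a hormone analogue, was at 21.7, 20.05 and 18.8 CPM in the libraries labelled dsFib, and at 26.8, 25.0 and 19.0 CPM in dsLacZ. dsLacZ replicates 1 and 2 stand above the rest and dsLacZ replicate 3 lies among the dsFib values, so the groups overlap. Met had a log2 fold change of -0.23 (SE 0.16). Its paralogue gce (FBgn0261703; X, 15297766 to 15319074, plus strand) was at 60.9, 59.4 and 55.7 CPM in the libraries labelled dsFib, and at 54.8, 51.4 and 50.6 CPM in dsLacZ. All 3 dsFib values lie above all 3 dsLacZ values, the closest pair being dsFib replicate 3 and dsLacZ replicate 1, and the log2 fold change was 0.17 (SE 0.09). Exons of gce overlap 2 antisense RNA genes, asRNA:CR44961 over 2197 bases and asRNA:CR44429 over 167 bases, which held 4 and 66 counts over 6 libraries. Whether counting used the strand is not given in the sources used here, so reads of gce and these genes may not be fully told apart.

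Setting the counts of a pair of genes against each other inside each library removes the scaling between libraries. The pairs were picked after their values were seen. The ratio of gce to Met counts was 2.81, 2.96 and 2.97 in the libraries labelled dsFib, and 2.04, 2.05 and 2.66 in dsLacZ. Every dsFib library lies above every dsLacZ library, with dsLacZ replicate 3 closer to the dsFib libraries than to its own group. The mean ratio was 2.91 ± 0.092 in the libraries labelled dsFib and 2.25 ± 0.35 in dsLacZ (SD, n = 3 each). For the ecdysone receptor, the ratio of usp to EcR counts was 1.71, 1.58 and 1.62 in the libraries labelled dsFib, and 1.58, 1.92 and 2.12 in dsLacZ, and the groups overlap.

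**Figure D2:**
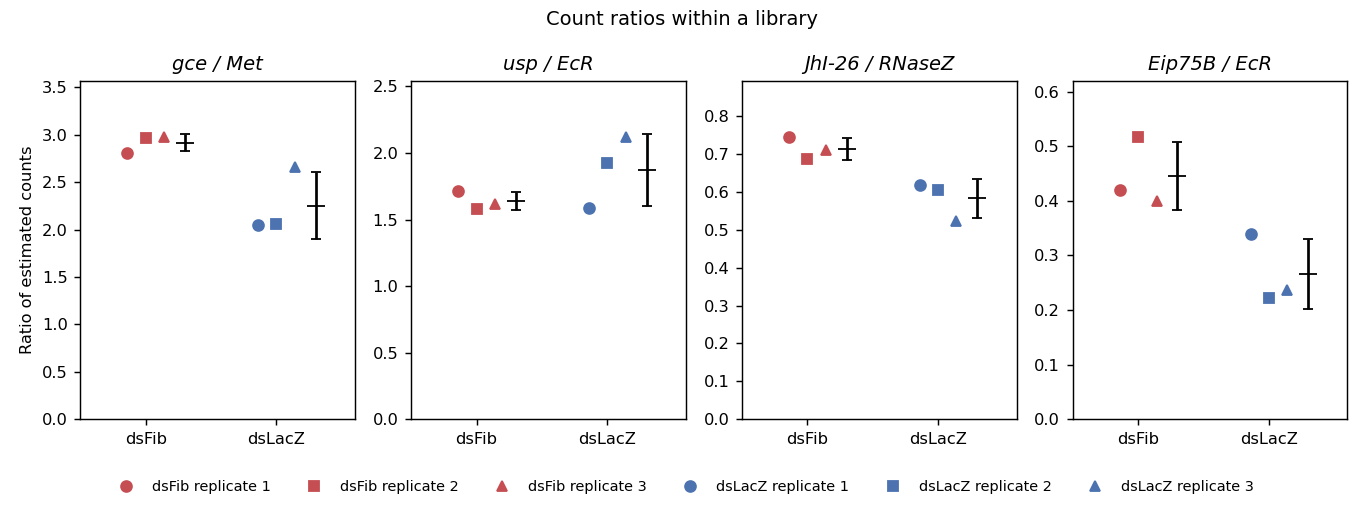
Ratio of estimated counts of a pair of genes within a library (vertical axes, from 0), with dsFib left of dsLacZ, points for single libraries and black bars for the mean ± SD (n = 3). The gce to Met, JhI-26 to RNaseZ and Eip75B to EcR ratios are higher in all 3 libraries labelled dsFib, and the usp to EcR ratios overlap.

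Levels of different genes were compared per gene length, as the TPM that the authors deposited. On this scale the partners EcR and usp were unequal, and so were the paralogues Met and gce. usp stood above EcR in 6 of 6 libraries, with EcR at 3.30 ± 0.72 TPM and usp at 11.7 ± 2.34 TPM (SD, n = 6). The difference of log2(TPM + 0.1), EcR minus usp, was -1.79 ± 0.17 (two-sided exact sign-flip permutation test, p = 0.0312, adjusted over the 2 receptor pairs p = 0.0312). gce stood above Met in 6 of 6 libraries, with Met at 2.39 ± 0.65 TPM and gce at 4.11 ± 0.77 TPM. The difference, Met minus gce, was -0.77 ± 0.24 (the same exact test, p = 0.0312, adjusted p = 0.0312). Both p-values are the smallest that 6 libraries allow. They measure how steadily the order repeated over the libraries, and a bias of a gene shared by all 6 would not show in them. The size depends on the gene length used: usp was 3.46-fold above EcR in TPM and 5.59-fold above it in CPM per kilobase of annotated exons, and gce was 1.71-fold and 2.21-fold above Met. By group, the EcR minus usp difference was -1.70 in the libraries labelled dsFib and -1.88 in dsLacZ, and the Met minus gce difference -0.95 in the libraries labelled dsFib and -0.59 in dsLacZ.

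JhI-26 was the most abundant of the 10 genes per length and Eip78C the least. The order of mean TPM over 6 libraries was JhI-26 at 15.2, usp at 11.7, gce at 4.11, EcR at 3.30, Met at 2.39, br at 1.72, Eip74EF at 1.25, Eip75B at 1.00, Kr-h1 at 0.502 and Eip78C at 0.107. The ranges of neighbours overlapped except between usp and gce and between Kr-h1 and Eip78C. Within single libraries the order was kept in 6 of 6 for most neighbours, and in 5 of 6 for JhI-26 above usp and for Eip74EF above Eip75B. JhI-26 lay above 75.3% of the tested genes in TPM, usp above 69.9%, EcR above 38.7% and Kr-h1 above 10.3%. Per kilobase of annotated exons, EcR and Met changed places, with 4.14 and 4.32 CPM per kilobase, and so did br and Eip74EF, with 1.69 and 1.97. All 4 receptor genes stood above all 5 early response genes on both scales, and br, the highest of these 5, lay above 25.4% of the tested genes.

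**Figure D3:**
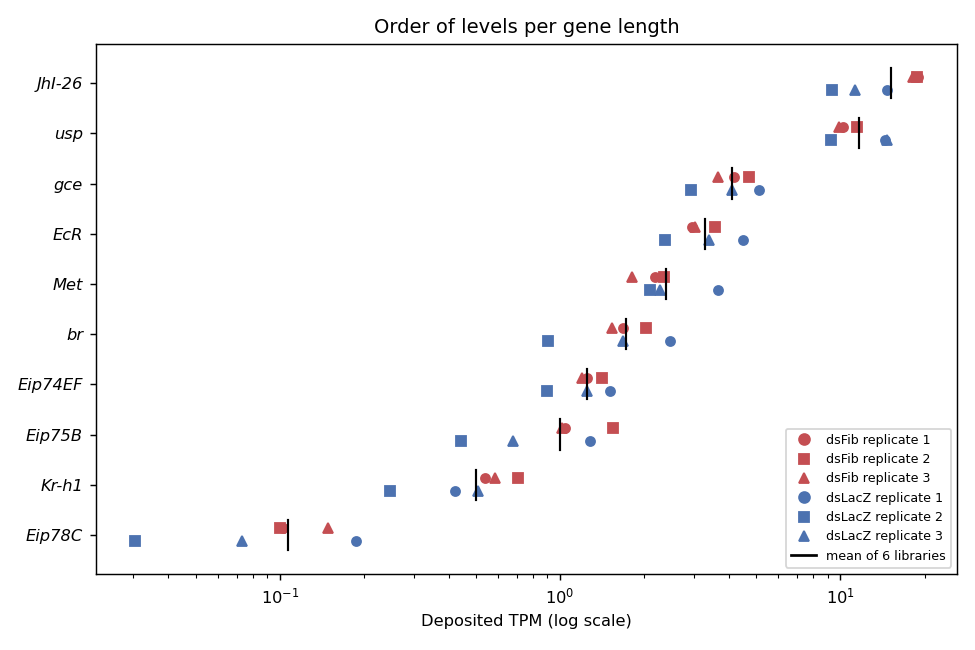
Deposited TPM (horizontal axis, log scale) of the 10 genes, ordered by mean, with points for single libraries, dsFib drawn above dsLacZ in each row, and a black line at the mean of 6 libraries. JhI-26 and usp lie at the top, the receptors gce, EcR and Met between 1.81 and 5.11 TPM, and Eip78C below 0.19 TPM.

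JhI-26 (FBgn0028424; 2R, 16289320 to 16291333, plus strand), named for its induction by juvenile hormone in cultured Drosophila cells, was the gene that chose the set. It was at 75.0, 64.0 and 74.9 CPM in the libraries labelled dsFib, and at 42.8, 44.3 and 37.6 CPM in dsLacZ. The groups lie far apart: the lowest library labelled dsFib, replicate 2, is well above the highest dsLacZ library, replicate 2. The log2 fold change was 0.78 (SE 0.11), and 3.42% of all tested genes had a larger one. It was 0.72 to 0.86 when each library was left out in turn. The gene has 1 annotated transcript of 3 exons and 1495 exonic bases, of which 1054 lie opposite asRNA:CR43730, a gene with 20 counts over 6 libraries. Its estimated counts were fractional in 4 libraries.

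The genes whose TMM-scaled log2 levels followed those of JhI-26 most closely over the 6 libraries were lqf, an endocytic epsin (Pearson r = 0.997), Smurf, a ubiquitin ligase (0.993), bin3, a methyltransferase acting on 7SK RNA (0.992), the transporter gene Mrp4 (0.991) and the transposable element copy FBti0019822 (0.988). These are 5 of 8302 tested genes and the 6 points share the difference between the groups, so any gene that is steady within groups and higher in the libraries labelled dsFib comes out close. Eip74EF ranked 6 with r = 0.987, although its own difference was much smaller, and gce had 0.832, Kr-h1 0.791, Eip75B 0.758 and usp -0.803.

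The early genes of the ecdysone cascade differed in size and steadiness. Eip75B (FBgn0000568; 3L, 17950953 to 18064696, minus strand), a haem-binding nuclear receptor, was at 16.7, 21.4 and 17.0 CPM in the libraries labelled dsFib, and at 15.1, 8.56 and 9.24 CPM in dsLacZ. dsLacZ replicate 1 stands well above the other dsLacZ libraries and close to the lowest dsFib library. Its log2 fold change was 0.74 (SE 0.23), 1.06 without dsLacZ replicate 1 and 0.59 without dsLacZ replicate 2. As a ratio to EcR counts, Eip75B was at 0.42, 0.516 and 0.401 in the libraries labelled dsFib, and at 0.339, 0.222 and 0.238 in dsLacZ, again without overlap.

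Eip74EF (FBgn0000567; 3L, 17558672 to 17619325, minus strand), an ETS-domain transcription factor, had the narrowest spread within groups of the 10 genes in TMM-scaled CPM. It was at 19.8, 19.4 and 19.8 CPM in the libraries labelled dsFib, and at 17.5, 17.1 and 16.8 CPM in dsLacZ. Within a group the highest library was at most 1.05-fold above the lowest. The groups lay apart by a small difference, with a log2 fold change of 0.20 (SE 0.12). In the deposited CPM the dsLacZ libraries ran from 15.3 to 19.6, and the groups overlapped. The counts were 204 to 286 a library, and whether the narrow spread is more than counting error would give was not tested.

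The broad gene, br (FBgn0283451; X, 1575132 to 1664869, plus strand), encodes a family of BTB zinc finger proteins needed for the start of metamorphosis and has 16 annotated transcripts from 9 start sites, which gene-level counts do not separate. It was at 36.5, 38.1 and 34.6 CPM in the libraries labelled dsFib, and at 39.5, 23.7 and 30.9 CPM in dsLacZ. dsLacZ replicate 1 was the highest of all libraries and dsLacZ replicate 2 the lowest, so the groups overlap. The log2 fold change was 0.21 (SE 0.17), 0.43 without dsLacZ replicate 1 and 0.05 without dsLacZ replicate 2.

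Eip78C (FBgn0004865; 3L, 21226609 to 21266503, plus strand), a nuclear receptor related to Eip75B, was low throughout. It had 16, 16 and 31 counts in the libraries labelled dsFib, and 26, 6 and 12 counts in dsLacZ, which is 1.42, 1.19 and 2.15 CPM in the libraries labelled dsFib and 1.90, 0.504 and 0.853 CPM in dsLacZ. The groups overlap, and a log2 fold change of 0.54 came with an SE of 0.57. Without dsLacZ replicate 1 it was 1.22 and without dsLacZ replicate 2 it was 0.21, so its size depended strongly on single libraries.

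Kr-h1 (FBgn0266450; 2L, 6082603 to 6096498, plus strand), the main effector of Met and gce, was at 6.37, 7.23 and 7.20 CPM in the libraries labelled dsFib, and at 3.65, 3.52 and 5.12 CPM in dsLacZ. The 3 dsFib values lie above the 3 dsLacZ values, of which replicate 3 is the highest, and this held in the deposited CPM as well. For Kr-h1 the log2 fold change was 0.76 (SE 0.24), and it was 0.66 without dsLacZ replicate 2 and 0.96 without dsLacZ replicate 3. The gene shares 4168 exonic bases with CG45075 on the same strand, to which the deposited tables gave 0 counts. How reads over the shared bases were counted was not tested. Its counts were few, 42 to 104 a library.

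Much of the variation among the 10 genes lay within the dsLacZ libraries. The ratio of the highest to the lowest library was larger in dsLacZ than in dsFib for 9 of the 10 genes, gce being the exception. dsLacZ replicate 1 was the highest dsLacZ library for 7 genes and dsLacZ replicate 2 the lowest for 5. Neither the spread nor the order of libraries was counted over all tested genes, so they are not read as traits of these 10. Without dsLacZ replicate 2, the library that stood apart, the log2 fold changes were 0.83 for JhI-26, 0.66 for Kr-h1, 0.59 for Eip75B, 0.20 for Eip74EF, 0.15 for gce, -0.02 for EcR, -0.18 for usp and -0.19 for Met. EcR is the single gene of the 10 whose sign changed there.

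**Figure D4:**
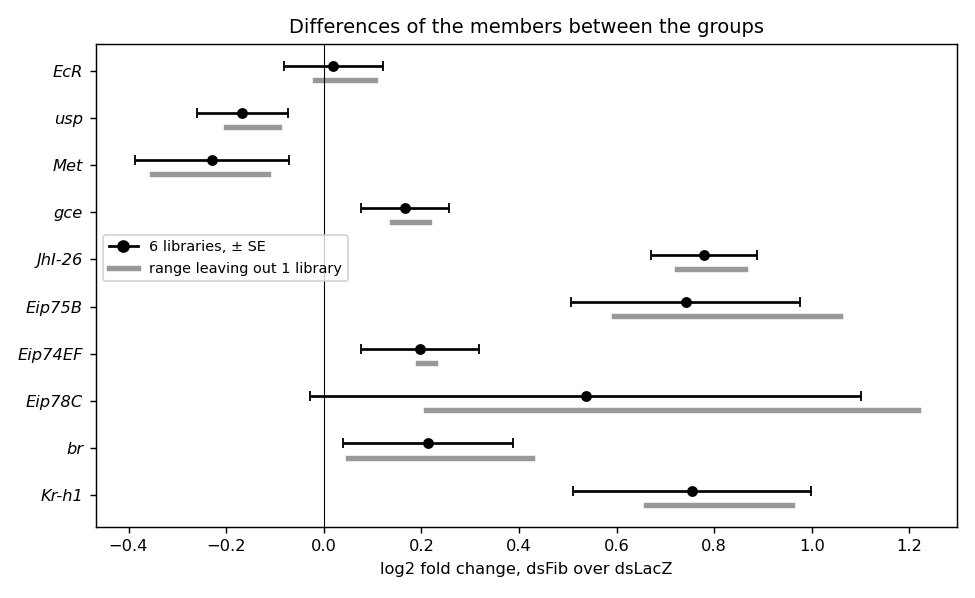
Log2 fold change of the 10 genes, dsFib over dsLacZ (horizontal axis), with black points and bars for 6 libraries ± SE and grey bars for the range when each library is left out in turn. JhI-26, Eip75B and Kr-h1 stay above 0.59 throughout, EcR lies on both sides of 0, and the grey bar of Eip78C runs between 0.21 and 1.22.

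The rest of the hormone pathways was measured through 6 lists of 79 genes in all, of which 46 passed the filter on low counts. The lists were written with earlier results of these data known, so nothing is read from the share of their genes that was called. Of these 46, 2 rose and 0 fell past the threshold (adjusted p of 0.05 over all tested genes), against 0.53% of all tested genes higher and 0.373% lower. The 2 are DOR and vri. Calls in either direction made up 0.903% of all tested genes. DESeq2 also called RNaseZ, giving 3 higher (against 2.28% of all tested genes) and 0 lower, and limma-voom called DOR alone. With unadjusted p-values under 0.05 there were 5 higher and 1 lower, or 6 of 46, against 15.9% of all tested genes. Positive log2 fold changes were found for 32 of the 46. The median log2 fold change was 0.13, against -0.01 over all tested genes. It was 0.23 over the 8 tested hemocyte markers and 0.52 over the 4 tested markers of other tissues. A median above 0 was thus also seen outside the hormone lists, though in few genes.

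Most genes for the making of ecdysone were close to silent. Of 13 genes for the synthesis, uptake, export and breakdown of the hormone, spo, phm, sad, Cyp18a1 and Eo had 0 counts in all 6 libraries, which allows up to 0.038 CPM over them (3 counts of the total, counting error only). Most low counts in these tables were even numbers. If both mates of a fragment were counted, which was not tested, this limit is higher, and the low counts given for Eip78C and Kr-h1 stand for fewer fragments. The importer gene Oatp74D was the well-expressed one, at 40.8 ± 6.12 CPM in the libraries labelled dsFib and 35.1 ± 6.35 CPM in dsLacZ (n = 3 each). It was 4.25 TPM over 6 libraries, close to the level of gce. None of the 4 tested genes passed by edgeR, DESeq2 or limma-voom, and 0 had an unadjusted p under 0.05. The smallest p-values were those of Oatp74D (log2 fold change 0.21, edgeR adjusted p = 0.59), sro (0.99, adjusted p = 0.628) and nvd (-0.55, adjusted p = 0.637). The genes sro and nvd act early in ecdysteroid synthesis and were low. sro was at 2.05 ± 0.39 CPM in the libraries labelled dsFib and 1.003 ± 1.07 CPM in dsLacZ, and nvd at 1.12 ± 0.11 CPM in the libraries labelled dsFib and 1.64 ± 0.81 CPM in dsLacZ.

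Among the other transcription factors of the cascade, 7 of 10 were tested and vri rose, with a list median of 0.20 on the log2 scale. vri, a bZIP repressor of the circadian clock, was at 27.8, 33.2 and 27.9 CPM in the libraries labelled dsFib, and at 18.1, 18.5 and 15.3 CPM in dsLacZ. The groups do not overlap, and the log2 fold change was 0.78 (SE 0.14, edgeR adjusted p = 0.0463). The call rests on most of the libraries: the edgeR adjusted p was 0.203, 0.157 and 0.144 without dsFib replicates 1, 2 and 3, and 0.0548, 0.0199 and 0.183 without dsLacZ replicates 1, 2 and 3. It was 0.143 with total counts alone and 0.0526 with limma-voom. The nuclear receptor gene Hr78 was at 44.1 ± 1.46 CPM in the libraries labelled dsFib and 53.7 ± 4.02 CPM in dsLacZ. Its groups do not overlap, and the log2 fold change was -0.28 (edgeR adjusted p = 0.214). It is the 1 lower gene of the 6 lists with an unadjusted p under 0.05 (edgeR, 0.0178). Blimp-1 was also lower without overlap (log2 fold change -0.49, edgeR adjusted p = 0.505). crol, a zinc finger gene, had 0.22 (adjusted p = 0.457). Hr3, a nuclear receptor that follows the early genes in the animal, had 0 counts, and Hr4 and Hr38 had 6 and 8 over 6 libraries.

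Of 27 genes known as ecdysone-inducible effectors, 11 were tested and 0 passed (edgeR, DESeq2 and limma-voom; 1 was higher with an unadjusted p under 0.05). In all libraries 13 of the 27 genes were at 0, among them the salivary glue genes Sgs3 and Sgs4, the fat body gene Fbp1 and the Eig71E genes of the list. The 3 with the smallest p were the small heat shock gene Hsp26, at 9.66 ± 2.33 CPM in the libraries labelled dsFib and 6.35 ± 1.30 CPM in dsLacZ, the insulin-binding protein gene ImpL2, at 12.6 ± 3.19 CPM in the libraries labelled dsFib and 8.38 ± 3.34 CPM in dsLacZ, and Hsp27, at 4.08 ± 1.82 CPM in the libraries labelled dsFib and 6.49 ± 2.33 CPM in dsLacZ. Their edgeR adjusted p-values were 0.298, 0.42 and 0.454, and their groups overlap.

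Of the coregulators and chaperones of the ecdysone receptor, 13 of 14 genes were tested, with 11 of these above 0 and a median log2 fold change of 0.14. The tested genes ran from 1.45 TPM (Art4) to 774 TPM (Hsp83) over 6 libraries, and svp had 0 counts. DOR, a coactivator of the receptor that also acts in autophagy, rose: it was at 27.4, 22.0 and 26.6 CPM in the libraries labelled dsFib, and at 9.21, 8.22 and 8.81 CPM in dsLacZ. The groups are far apart, with a log2 fold change of 1.53 (SE 0.15, edgeR adjusted p = 0.00672). Without dsFib replicates 1 and 3 and without dsLacZ replicate 3 its adjusted p was 0.081, 0.0625 and 0.0537. tai, a p160-type coactivator that also works with Met, was at 185.0 ± 7.42 CPM in the libraries labelled dsFib and 148.2 ± 11.1 CPM in dsLacZ, without overlap, but did not pass (log2 fold change 0.32, SE 0.10, edgeR adjusted p = 0.167). Smr, a corepressor, had 0.29 (adjusted p = 0.322). Hsp83 was lower in the libraries labelled dsFib without overlap (log2 fold change -0.16, edgeR adjusted p = 0.581).

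On the juvenile hormone side, jhamt, the enzyme gene that completes hormone synthesis, had 0 counts, and the hormone esterase genes Jhe and Jhedup had 2 each. The 6 tested genes of the synthesis and breakdown list make isoprenoids, which serve other ends too, or encode the epoxide hydrolases Jheh1 and Jheh2. None passed (edgeR, DESeq2 and limma-voom; 0 had an unadjusted p under 0.05). Fpps, the farnesyl diphosphate synthase gene, was at 5.56 ± 0.092 CPM in the libraries labelled dsFib and 3.64 ± 0.91 CPM in dsLacZ, with a log2 fold change of 0.61 (edgeR adjusted p = 0.314). qm, a gene of isoprenoid synthesis, had 0.23 (adjusted p = 0.431).

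The last list held 5 genes: RNaseZ and JhI-21, isolated as juvenile hormone inducible, Fkbp39 and Chd64, factors that bind hormone response elements, and mnd. All 5 were tested and lay above 0, with a median log2 fold change of 0.10, and 0 passed by edgeR or limma-voom (1 was higher with an unadjusted p under 0.05, and 1 by DESeq2). RNaseZ, isolated as JhI-1 together with JhI-26 and encoding the nuclease that trims tRNA 3′ ends, was at 100.9, 93.4 and 105.6 CPM in the libraries labelled dsFib, and at 69.2, 73.2 and 71.7 CPM in dsLacZ. The groups do not overlap, yet the gene did not pass (log2 fold change 0.49, SE 0.09, edgeR adjusted p = 0.0527). DESeq2 gave an adjusted p of 0.00342, and edgeR 0.0261 without dsLacZ replicate 2. The edgeR adjusted p was 0.27, 0.114 and 0.187 without dsFib replicates 1, 2 and 3. It was 0.0818 and 0.193 without dsLacZ replicates 1 and 3, 0.164 with total counts alone and 0.23 with the replicate block. The ratio of JhI-26 to RNaseZ counts was 0.743, 0.686 and 0.709 in the libraries labelled dsFib, and 0.618, 0.605 and 0.524 in dsLacZ; the JhI-26 values in it are those that chose the set. JhI-21, an amino acid transporter gene, was close to level, at 86.2 ± 3.75 CPM in the libraries labelled dsFib and 80.4 ± 3.20 CPM in dsLacZ (log2 fold change 0.10, SE 0.09, edgeR adjusted p = 0.633). Chd64 had 0.12 (adjusted p = 0.756).

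**Figure D5:**
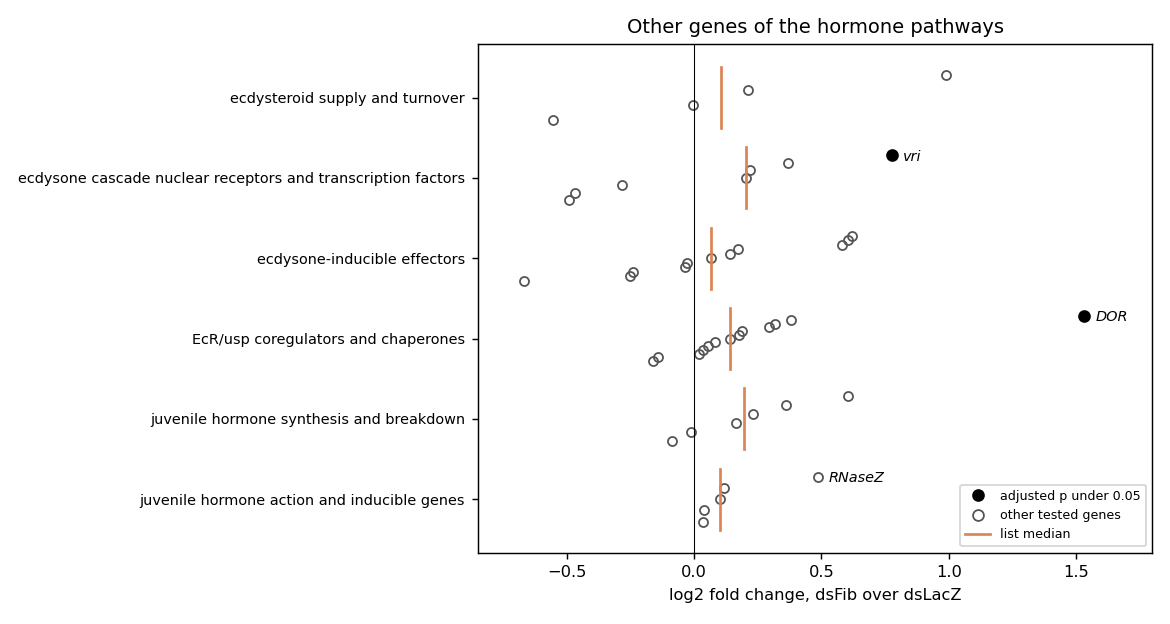
Log2 fold change, dsFib over dsLacZ (horizontal axis), of the 46 tested genes in the 6 pathway lists (rows), with filled points for genes past an adjusted p of 0.05, open points for the others and orange lines at list medians. DOR at 1.53 and vri at 0.78 are the filled points, and RNaseZ at 0.49 is marked.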

How the data were processed

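For each library the authors deposited a table of gene-level values, per the file headers: the estimated count, CPM and TPM. Reads were handled with cutadapt 3.4, Bowtie2 and STAR on dm6, per the submitters' processing notes, which give no roles. The counter was CoCo, per the names of the deposited tables. Its version, annotation and strand setting were not given in the sources used here. As deposited, the CPM is the estimated count over the library total. The deposited TPM is the authors' scaling per gene length. Of whole counts from 1 to 20, 89.6% to 91.3% were even.

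Estimated counts were rounded and fitted with edgeR 4.0.16 in R 4.3.3 (filterByExpr, 8302 genes, TMM, quasi-likelihood test, group as the single term, Benjamini-Hochberg adjustment over all genes tested, threshold 0.05), after tests on simulated data. TPM was compared between EcR and usp, and between Met and gce, with an exact sign-flip test over 6 libraries on log2(TPM + 0.1). Coordinates are from the Ensembl annotation of BDGP6 (dm6), which held 23851 of the 23932 genes. The members and lists were chosen with earlier results of these data known. List genes named are those past the threshold and the 3 with the smallest p, of which 1 is not reported here; genes at 0 and a few others were named after their values were seen. Alternatives were other scalings, DESeq2 1.42.0, limma 3.58.1 (voom), other filters, the replicate number as a block, halved counts (chosen after seeing the data) and leaving out each library.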

Additional observations from a re-analysis of the deposited data

How the results depend on the processing

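Of 149 alternative values of the 10 genes, 147 moved by less than 1 SD between replicates; the others were Eip74EF with total counts alone (0.16) and without dsLacZ replicate 1 (0.23). The whole table gave 44 genes higher and 31 lower. It gave 5 and 26 with total counts alone, 189 and 131 with DESeq2, and 167 and 116 with no filter on low counts. Leaving out 1 library gave 1 to 221 higher and 1 to 89 lower. In the 6 pathway lists 2 genes were higher, against 1 with total counts alone, 1 with limma-voom and 0 to 3 with 1 library left out. With the replicate block there were 0 genes higher and 1 lower over the table and 0 in the lists. Same-numbered libraries did not deviate together (r of -0.04, -0.19 and -0.11 across genes). Libraries with different numbers gave r between -0.13 and 0.19. With 3 libraries a group, this check cannot decide whether the numbers pair the libraries. Without 1 library the EcR minus usp difference was -1.82 to -1.74 and the Met minus gce difference -0.83 to -0.73, each with p = 0.0625, the smallest that 5 libraries allow in the exact test. Eip78C and Kr-h1 had the fewest counts of the 10 genes, 107 and 437 over 6 libraries, and the part of depth was not tested. The cause of these changes was not tested.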
